A study of Mus musculus with 5 samples.

Results

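Notch signalling was read here through 9 genes, namely the 4 receptors Notch1, Notch2, Notch3 and Notch4, the 2 ligands Dll4 and Jag1, and the 3 transcriptional targets Hey1, Heyl and Hes1. They were picked by symbol from the 31053 genes of the count tables, and all 9 were found. The cells came from digested mouse hearts, sorted as DRAQ5-positive (nucleated) and DAPI-negative (intact), and were profiled in 5 libraries with 10x Genomics 5′ single-cell chemistry. The control group was Ctla4+/+Pdcd1-/- (replicates 1 and 2, from 4 mice) and the disease group was Ctla4+/-Pdcd1-/- (replicates 3, 4 and 5, from 10 mice), a genotype combination used as a model of myocarditis under immune checkpoint inhibitors. Both groups lacked Pdcd1, so the contrast between them was the loss of 1 Ctla4 copy on a Pdcd1-deficient background, and hearts with intact Pdcd1 were not part of the comparison. Hearts were pooled before library preparation, so the library was the replicate, and p-values measure the spread between these libraries. The age, sex and strain of the mice and the days of collection were not given in the sources used here.

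Notch receptors are membrane proteins that are activated by ligands on a neighbouring cell. After ligand binding, the metalloprotease Adam10 and then the gamma-secretase complex cut the receptor, and the freed intracellular domain enters the nucleus, binds the DNA-binding protein Rbpj and switches on genes such as those of the Hes and Hey families. In blood vessels, Dll4 on endothelium restrains sprouting and supports arterial identity, and Jag1 on endothelium signals to Notch3 on the mural cells (smooth muscle cells and pericytes) that wrap the vessel. Notch2 is also used by blood cells, among them B cells and some monocytes.

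The promoters of 4 members are shown because they belong to a receptor found in all 4 cell populations described here (Notch1) and to 3 genes that were largely restricted to vessel cells (Notch3, Notch4 and Dll4). Each runs from 250 bases before to 50 bases after the annotated start, 5′ to 3′ on the gene's own strand, from RefSeq on build GRCm38.p6. Capitals mark matches, on either strand, to the GC box GGGCGG, the AP-1 site TGACTCA, the ETS core AGGAAG or the TATA-like TATATAA.
Notch1, chr2:26503773-26504072, minus strand: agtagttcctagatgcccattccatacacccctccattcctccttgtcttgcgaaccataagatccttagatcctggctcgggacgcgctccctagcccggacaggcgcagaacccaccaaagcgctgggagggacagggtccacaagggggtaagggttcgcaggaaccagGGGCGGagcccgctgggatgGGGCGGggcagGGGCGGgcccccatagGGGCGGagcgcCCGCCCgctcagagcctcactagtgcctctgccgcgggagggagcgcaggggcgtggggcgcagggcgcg
Notch3, chr17:32166841-32167140, minus strand: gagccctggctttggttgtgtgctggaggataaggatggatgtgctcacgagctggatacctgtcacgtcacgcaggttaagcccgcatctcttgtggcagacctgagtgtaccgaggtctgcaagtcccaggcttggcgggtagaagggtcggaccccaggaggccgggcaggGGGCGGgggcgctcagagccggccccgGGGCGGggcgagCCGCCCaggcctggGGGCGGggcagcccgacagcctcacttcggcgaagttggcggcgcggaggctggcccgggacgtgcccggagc
Notch4, chr17:34564045-34564344, plus strand: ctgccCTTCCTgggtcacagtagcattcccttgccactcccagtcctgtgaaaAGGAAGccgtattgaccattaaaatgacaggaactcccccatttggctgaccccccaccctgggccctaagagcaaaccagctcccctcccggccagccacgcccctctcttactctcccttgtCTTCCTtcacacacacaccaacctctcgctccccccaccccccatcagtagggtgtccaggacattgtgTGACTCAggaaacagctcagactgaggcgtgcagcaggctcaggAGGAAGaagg
Dll4, chr2:119325534-119325833, plus strand: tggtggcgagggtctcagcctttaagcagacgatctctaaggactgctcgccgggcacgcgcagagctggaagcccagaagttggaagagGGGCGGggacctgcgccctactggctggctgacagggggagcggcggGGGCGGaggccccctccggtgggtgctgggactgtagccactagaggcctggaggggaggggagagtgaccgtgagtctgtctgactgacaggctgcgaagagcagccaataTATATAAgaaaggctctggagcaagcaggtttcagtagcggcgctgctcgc
The Notch1 window held 5 GC boxes, the Notch3 window 4 and the Dll4 window 2 with 1 TATATAA, while the Notch4 window held none and had 1 AP-1 letter match and 4 ETS core matches. The capitals of one motif overlapped those of no other in these windows. Of all 27025 promoters of this length in the table, 35.9% had a GC box, 35.1% an ETS core, 5.17% the AP-1 letters and 3.46% the TATATAA letters. The Rbpj letters GTGGGAA, found in 6.39% of all promoters, were in none of the 6 member promoters that the table held (those above, Notch2 and Jag1). Hey1, Heyl and Hes1 had no entry in the table. The motif letters were chosen after the sequences had been read, and a letter match is a description and not a binding site.

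The libraries held 24991704 to 55053988 UMIs (unique molecular identifiers, here 1 count per captured RNA molecule), and 37138 of 47319 barcodes passed the filters on depth, mitochondrial share and doublets, with a median of 3336.5 to 4540 UMIs per barcode. Any 2 libraries shared 86 to 161 barcode sequences, 1.33 to 1.90% of the smaller library. Barcodes were put into populations by UMIs of marker genes that exclude the 9 members, and each such population is called a gate. The gates held 10151 endothelial, 406 mural, 10675 fibroblast and 9738 leukocyte barcodes, together 83.4% of those retained. Leukocytes were 55.8% of the gated barcodes in disease replicate 4 and 18.1 to 26.8% in the other 4 libraries. Pdcd1 UMIs were present in the T cell gate of every library, at 72.5 to 1063 CPM (a gene's UMIs per 1000000 UMIs of the gate in that library). Ctla4 was at 432 and 72.5 CPM in the T cell gate of control and at 154, 648 and 551 CPM in that of disease libraries, so the groups overlapped. The 5′ assay reads the start of a transcript, and which exons the deleted alleles lack is not given in the sources used here, so these counts do not test the genotype labels.

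The 4 populations differed in nearly every member. Notch3 was a mural gene and Notch4 a vessel gene. Notch1 was present in all 4 gates, highest in the endothelial and mural gates, and Notch2 was highest in leukocytes and fibroblasts. These mural levels are of all mural barcodes, many of which carried UMIs of endothelial markers. In those without such UMIs, described below, mural Notch1 did not separate from leukocytes, nor mural Notch2 from fibroblasts. Levels were compared between gates within a gene, by edgeR's quasi-likelihood test with the library as a block and p-values adjusted over all genes (Benjamini-Hochberg), and are given as mean CPM ± SD over the 5 libraries. These contrasts called 43.0% of all genes tested between endothelial and mural gates, 75.5% between endothelial and fibroblast gates, 74.2% between endothelial and leukocyte gates, 44.5% between mural and fibroblast gates, 58.5% between mural and leukocyte gates and 76.4% between fibroblast and leukocyte gates. Of the members tested, 8 of 9, 9 of 9, 7 of 8, 8 of 9, 9 of 9 and 7 of 9 were called in the same order, so a called difference between gates is common among all genes and the sizes below carry the description.

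Notch1, the broadest of the receptors, reached 165 ± 21.8 CPM in the endothelial gate, 145 ± 34.0 in the mural gate, 49.4 ± 5.84 in the leukocyte gate and 22.7 ± 2.77 in the fibroblast gate (n = 5). In replicate order, the endothelial level was 143 and 140 CPM in control libraries and 183, 181 and 179 CPM in disease libraries. With all mural barcodes, endothelial and mural gates could not be separated (log2 fold change 0.14, SE 0.11, adjusted p = 0.308). The mural level, again with all mural barcodes, exceeded the leukocyte level by 1.15 (SE 0.14, adjusted p = 2.9e-07) on the log2 scale, and the leukocyte level exceeded the fibroblast level by 1.30 (SE 0.09, adjusted p = 1.3e-06). Both mural comparisons changed in mural barcodes without endothelial UMIs, as given below.

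Notch2, a receptor of blood and stromal cells, had another order. It stood at 36.8 ± 4.65 CPM in leukocytes, 30.5 ± 4.54 in fibroblasts, 14.4 ± 7.07 in mural barcodes and 3.32 ± 0.232 in endothelial barcodes (n = 5). Each step in that order passed the test with all mural barcodes, the smallest being leukocyte over fibroblast at log2 0.44 (SE 0.10, adjusted p = 0.00353) and the largest mural over endothelial at log2 2.10 (SE 0.39, adjusted p = 1.4e-05).

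Notch3, the receptor of vascular smooth muscle and pericytes, had 323 and 380 CPM in the mural gate of the control libraries and 477, 536 and 539 CPM in that of the disease libraries. Its mean there was 451 ± 96.2 CPM, against 7.94 ± 1.12 in fibroblasts, 1.06 ± 0.844 in endothelial barcodes and 0.669 ± 0.521 in leukocytes (n = 5). The mural level was above the fibroblast level by log2 5.73 (SE 0.13, adjusted p = 8.0e-32), and the fibroblast level above the endothelial level by log2 2.85 (SE 0.29, adjusted p = 4.7e-07). The 2 lowest gates were too low to be tested against each other.

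Notch4, known as an endothelial receptor, was measured at 75.3 ± 12.6 CPM in the endothelial gate and 33.7 ± 14.0 in the mural gate (log2 1.06, SE 0.17, adjusted p = 1.0e-06, n = 5). Fibroblasts had 2.25 ± 1.07 and leukocytes 1.61 ± 1.25 CPM, which did not separate (adjusted p = 0.647).

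Of the ligands, Dll4 was restricted to vessel cells and Jag1 was highest in mural barcodes. In the endothelial gate Dll4 reached 136 and 140 CPM in control libraries, against 159, 205 and 183 CPM in disease libraries. Its mean was 164 ± 29.1 CPM in endothelial and 113 ± 25.9 in mural barcodes, and 2.10 ± 1.13 in leukocytes and 1.43 ± 0.758 in fibroblasts (n = 5). The step from endothelial to mural was log2 0.46 (SE 0.11, adjusted p = 0.000934) and that from mural to leukocyte log2 5.59 (SE 0.27, adjusted p = 1.0e-13), while leukocytes and fibroblasts did not separate (adjusted p = 0.0733). A Dll4 UMI was seen in 32.3 to 38.2% of endothelial barcodes per library and in 0 to 1.12% of T cell barcodes, although the T cell barcodes were deeper (median 3732 to 4773 UMIs against 2474 to 3362). The T cell gate held 20 Dll4 UMIs over the 5 libraries, and their source was not tested. After each barcode was thinned to 1000 UMIs, which left out 443 of the 10151 endothelial and 57 of the 3312 T cell barcodes, the shares were 11.7 to 18.4% and 0 to 1.11%.

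Jag1, the ligand that endothelium and smooth muscle present to Notch3, was at 94.0 ± 34.6 CPM in mural, 27.7 ± 5.46 in endothelial, 18.7 ± 2.13 in fibroblast and 3.87 ± 1.05 in leukocyte barcodes (n = 5). The mural gate exceeded the endothelial gate by log2 1.83 (SE 0.15, adjusted p = 6.8e-14), and the endothelial gate exceeded the fibroblast gate by 0.49 (SE 0.09, adjusted p = 0.000191). All 5 libraries had the same order at both steps.

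All 3 targets had their highest mean in the mural gate, although Heyl did not separate there from its fibroblast level. Hes1, a bHLH repressor that also responds to signals other than Notch, was at 365 ± 78.8 CPM in mural, 180 ± 49.3 in endothelial, 128 ± 17.6 in fibroblast and 37.7 ± 14.7 in leukocyte barcodes (n = 5), and every step passed the test, the smallest being endothelial over fibroblast at log2 0.40 (SE 0.08, adjusted p = 0.000604). Hey1, an effector of arterial endothelium, was at 131 ± 49.9 CPM in mural, 76.5 ± 18.2 in endothelial, 10.8 ± 3.79 in fibroblast and 1.42 ± 0.953 in leukocyte barcodes, with all 3 steps past the threshold. Its step from mural to endothelial held with all mural barcodes but was lost in those without endothelial UMIs, as given below. Heyl, a related repressor known from smooth muscle and pericytes, had 119 ± 14.1 CPM in mural and 95.8 ± 9.48 in fibroblast barcodes (log2 0.24, SE 0.12, adjusted p = 0.119), but 2.36 ± 0.952 in endothelial and 1.35 ± 0.459 in leukocyte barcodes. The plot of levels by gate shows these orders for each library.

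**Figure D1:**
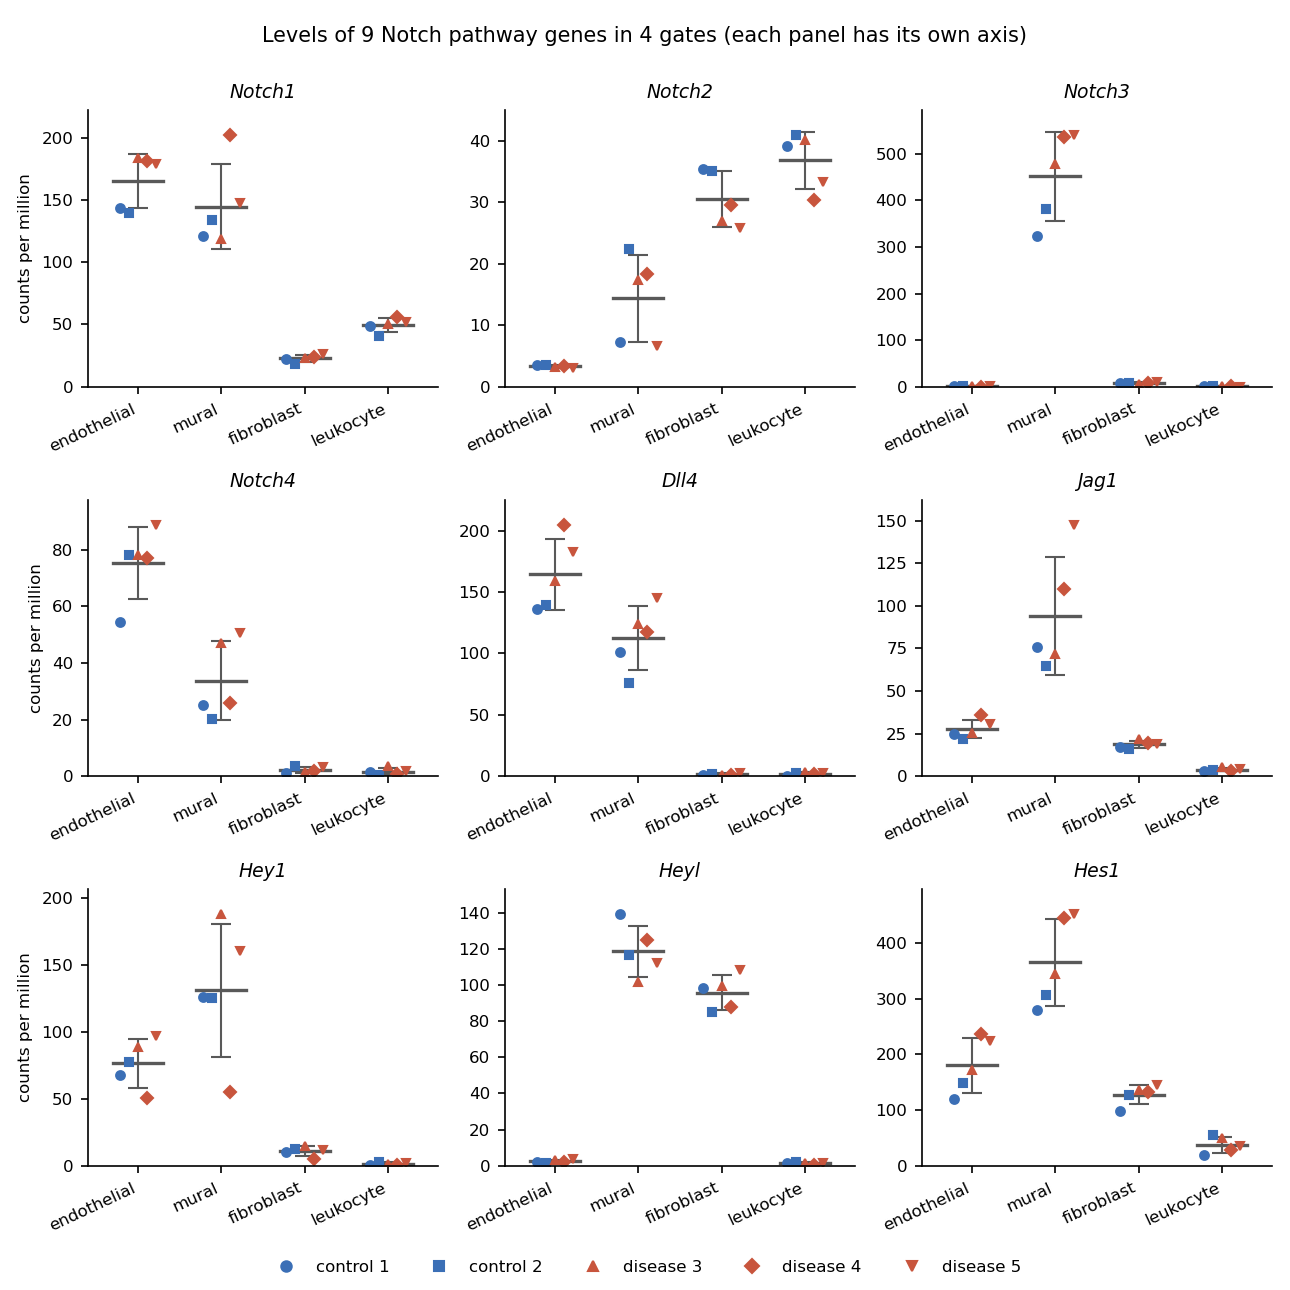
Level of each of the 9 genes (vertical axis, CPM, starting at 0 and scaled separately in each panel) in the endothelial, mural, fibroblast and leukocyte gates. Each point is 1 library (blue, control; red, disease), and bars are the mean ± SD over 5 libraries; Notch3 stands at 451 CPM in the mural gate and at 7.94 CPM or less in the other 3.

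The mural gate was mixed. Of its 406 barcodes, 179 had no UMI of the 7 endothelial markers, 47 had 1 to 2 and 180 had at least 3. Those with at least 3 made up 35.6 and 37.6% of the mural barcodes of the control libraries, against 55.4, 47.5 and 50.5% of those of the disease libraries. The 7 endothelial markers summed to 1094 to 1530 CPM in the mural gate and to 4905 to 5537 CPM in the endothelial gate. Members were therefore also read in mural barcodes without any endothelial marker UMI, an alternative chosen after the data had been seen.

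In mural barcodes without endothelial UMIs, Dll4 was at 10.5 CPM (6 UMIs pooled over the 5 libraries) and Notch4 at 7.02 CPM (4 UMIs), against 164 and 49.9 CPM in mural barcodes with at least 3 endothelial UMIs. A count of 3 UMIs would make 5.27 CPM in the first set. Notch1 was at 87.8 against 168 CPM, Hey1 at 105 against 156 and Jag1 at 73.7 against 102. Notch3 ran the other way, at 584 against 370 CPM, as did Heyl at 193 against 88.7, Hes1 at 451 against 319 and Notch2 at 22.8 against 9.54. Of all Dll4 UMIs of the mural gate, 224 of 238 lay in the barcodes with at least 3 endothelial UMIs, as did 68 of the 72 Notch4 UMIs. Those 180 barcodes held 1363398 of the 2131817 UMIs of all genes in the gate, and the 179 without endothelial UMIs held 569796. The 2 sets thus also differed in depth per barcode, and the part of depth in these levels was not tested.

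In fits that kept only the 179 mural barcodes without an endothelial UMI, the endothelial gate exceeded the mural gate in Dll4 by log2 4.04 (SE 0.39, adjusted p = 3.0e-23) and in Notch4 by log2 3.52 (SE 0.50, adjusted p = 2.3e-11), against 0.46 and 1.06 with all mural barcodes. The endothelial gate then exceeded the mural gate in Notch1 by log2 1.03 (adjusted p = 8.0e-05), and Hey1 no longer separated these gates (log2 -0.30, adjusted p = 0.373). Heyl then exceeded its fibroblast level (log2 0.72, adjusted p = 0.00284). Notch2 in mural against fibroblast barcodes (log2 -0.76, adjusted p = 0.177, against -1.25 with all mural barcodes) and Notch1 in mural against leukocyte barcodes (log2 0.35, adjusted p = 0.306, against 1.15) lost their calls. Gates that required 95% of the marker UMIs also ended the Notch2 calls of mural against fibroblast (log2 -0.53, adjusted p = 0.395) and mural against leukocyte barcodes (log2 -0.92, adjusted p = 0.0618). Jag1, Hes1, Heyl and Notch3 stayed above their endothelial levels, with the highest adjusted p over all alternatives at 0.00409 for Jag1, 0.00198 for Hes1, 1.2e-08 for Heyl and 1.4e-08 for Notch3.

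**Figure D2:**
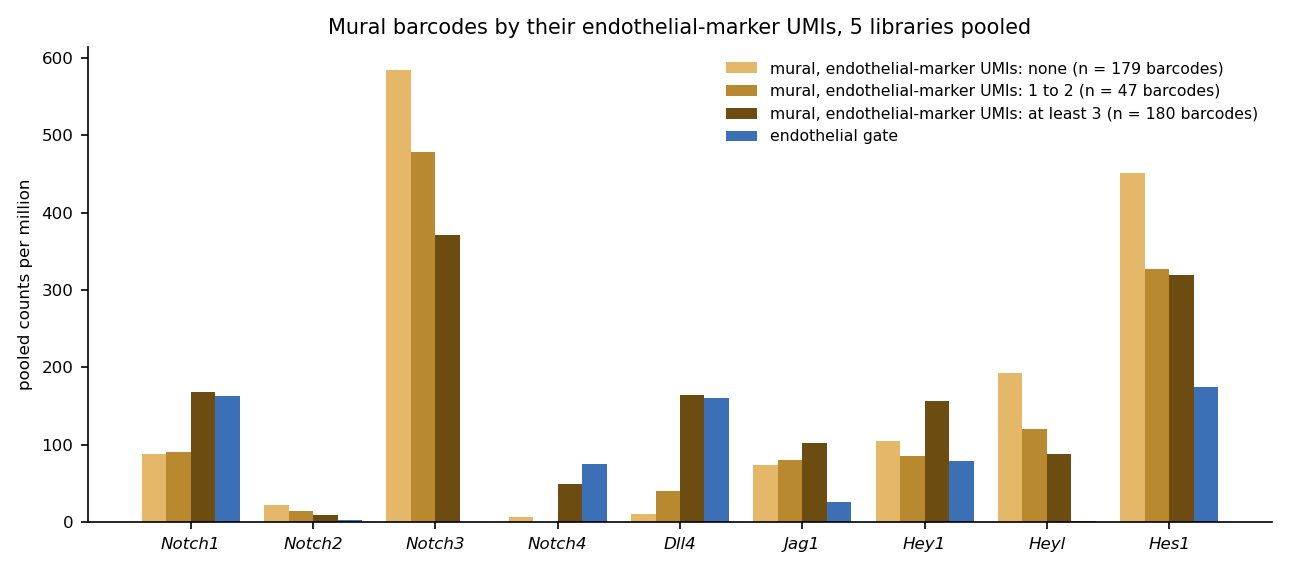
CPM pooled over 5 libraries (vertical axis, from 0) of the 9 genes in mural barcodes with no, 1 to 2 or at least 3 UMIs of 7 endothelial markers, and in the endothelial gate. Dll4 and Notch4 stand at 10.5 and 7.02 CPM in mural barcodes without endothelial UMIs, and Notch3 is highest there at 584 CPM.

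Within the endothelial gate, Hey1 and Jag1 were higher in arterial than in capillary barcodes, and Dll4 was not called. Barcodes were called arterial or capillary from markers outside the 9 members (1925 and 7676 barcodes in all, median depths per library 3116 to 4187 and 2376 to 3198 UMIs), and 3 of the 6 members tested were higher in arterial barcodes, where 8.79% of all genes tested were called higher. Hey1 was at 150, 186, 195, 95.9 and 207 CPM in arterial and at 41.3, 43.1, 54.5, 36.7 and 57.6 CPM in capillary barcodes of replicates 1 to 5. The arterial level was the higher in each library, by log2 1.87 on average (SE 0.07, adjusted p = 5.0e-31).

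Jag1 was at 41.7, 33.3, 34.4, 75.5 and 55.8 CPM in arterial and 18.4, 16.8, 21.2, 22.5 and 20.2 CPM in capillary barcodes (log2 1.23, SE 0.11, adjusted p = 3.2e-13), again higher in each library. Notch1 was called by a smaller margin, at 186 ± 29.2 against 154 ± 20.7 CPM (log2 0.27, SE 0.05, adjusted p = 6.8e-05), and that call was lost in gates that required 95% of the marker UMIs (log2 0.22, adjusted p = 0.122). Dll4 was at 172 ± 31.9 against 164 ± 29.2 CPM (log2 0.07, SE 0.05, adjusted p = 0.445), Notch4 at 77.3 ± 11.1 against 74.6 ± 13.5 CPM (log2 0.04, SE 0.07, adjusted p = 0.761) and Hes1 at 178 ± 49.7 against 183 ± 52.4 CPM (log2 -0.03, SE 0.05, adjusted p = 0.748). Notch2, Notch3 and Heyl were too low in both to be tested. Endocardial (2 to 8 per library) and lymphatic (8 to 28) barcodes were too few for a comparison, and in the lymphatic gate Notch3 and Heyl had no UMI in any library.

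Within the mural gate, the smooth muscle and pericyte barcodes (209 and 176 in all) differed most in Heyl. Heyl was at 100, 86.6, 71.8, 90.3 and 62.2 CPM in smooth muscle and at 195, 181, 180, 197 and 215 CPM in pericyte barcodes of replicates 1 to 5, with no overlap. It was lower in smooth muscle by log2 -1.16 (SE 0.20, adjusted p = 0.000214), where 10.2% of all genes tested were called lower. Notch3 was at 492 ± 118 against 378 ± 62.0 CPM and was called higher in smooth muscle (log2 0.42, SE 0.14, adjusted p = 0.0412), where 10.9% of genes were called higher. That call was lost without replicate 1, 2, 4 or 5 at fold changes of log2 0.36 to 0.47, and in barcodes without endothelial UMIs and in gates that required 95% of the marker UMIs at log2 0.0021 and 0.014 (adjusted p = 0.996 and 0.977). The other 5 members tested, Notch1, Dll4, Jag1, Hey1 and Hes1, did not pass (adjusted p from 0.0999 to 0.949), although Hes1 was called higher in smooth muscle without a count filter (log2 0.56, adjusted p = 0.0195) and without replicate 2 (log2 0.53, adjusted p = 0.0407), and Notch2 and Notch4 were too low to be tested. Endothelial markers summed to 866 to 1505 CPM in smooth muscle and 1124 to 1863 CPM in pericyte barcodes, and their part in these differences was not tested beyond the set without endothelial UMIs.

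**Figure D3:**
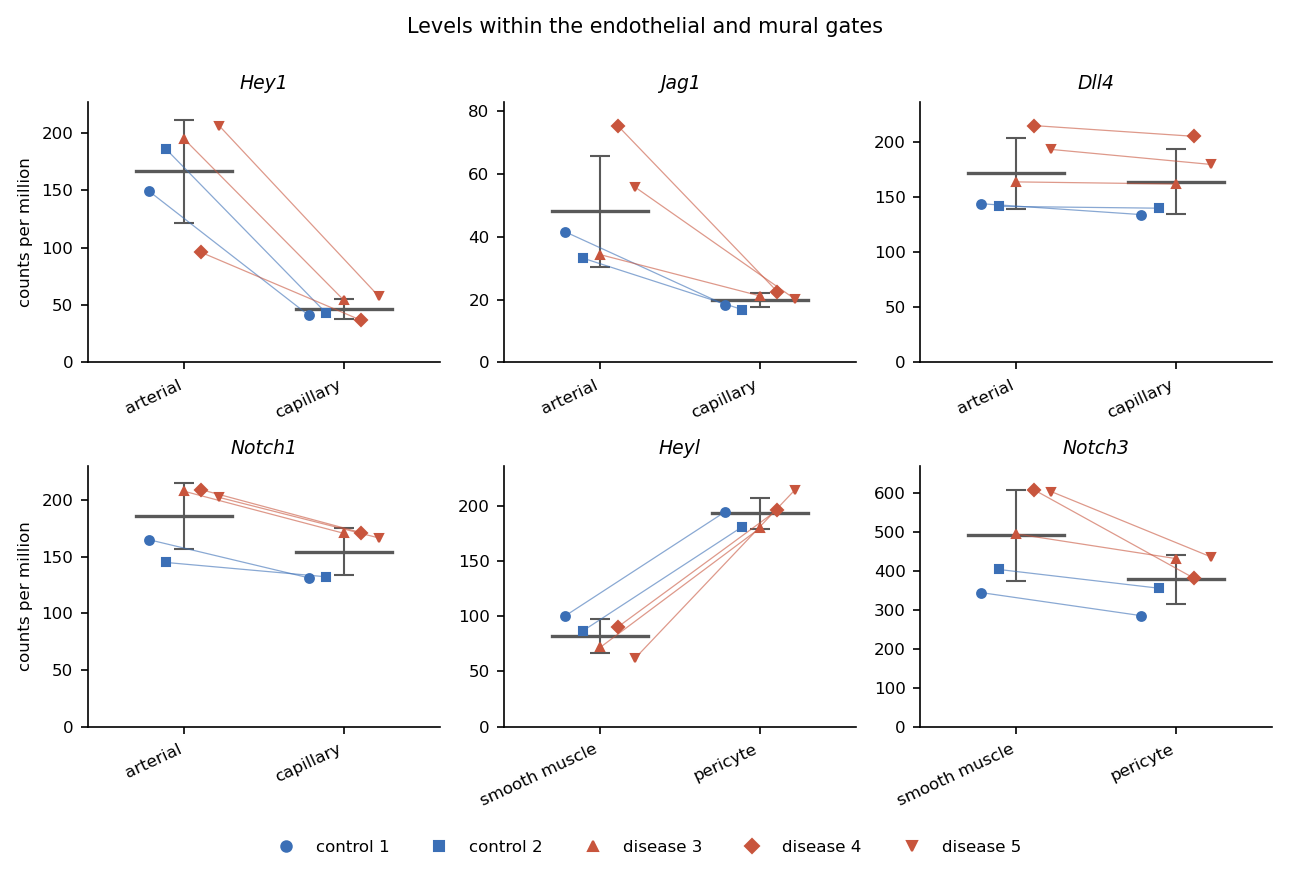
Levels (vertical axis, CPM from 0) of Hey1, Jag1, Dll4 and Notch1 in arterial and capillary barcodes and of Heyl and Notch3 in smooth muscle and pericyte barcodes. Points are libraries joined between gates (blue, control; red, disease) and bars are mean ± SD over 5 libraries; Hey1 and Jag1 fall from arterial to capillary and Heyl rises from smooth muscle to pericyte in each library, while the Dll4 means are 172 and 164 CPM.

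Among leukocytes, UMIs of Notch1, Notch2 and Hes1 were found in all 5 subsets gated. Monocytes and macrophages had 52.2 ± 5.74 CPM of Notch1, 42.3 ± 2.51 of Notch2 and 47.6 ± 14.6 of Hes1 (n = 5). T cells had 50.1 ± 12.7 CPM of Notch1, 15.9 ± 9.22 of Notch2 and 2.76 ± 1.88 of Hes1. B cells had 19.0 ± 7.51 CPM of Notch1, 45.2 ± 7.61 of Notch2 and 68.1 ± 27.6 of Hes1. Neutrophils (18 to 57 barcodes per library) had 113 ± 46.5 CPM of Notch2 from 42 UMIs, with at least 54.0 CPM in each library, and 69.9 ± 92.4 CPM of Notch1 from 25 UMIs. NK cells (6 to 38 barcodes per library) had 71.5 ± 67.5 CPM of Notch1 from 19 UMIs, 30.0 ± 31.1 of Notch2 from 9 UMIs and 51.7 ± 42.0 of Hes1 from 16 UMIs, each at 0 in at least 1 library. The differences between these leukocyte gates were not tested. Notch3, Notch4, Dll4, Hey1 and Heyl stayed at or under 2.45 CPM on average in the monocyte and macrophage, T cell and B cell gates, and Jag1 at or under 4.87.

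Between the disease and control libraries, no member passed the test in any of the 6 gates tested (edgeR's quasi-likelihood test, Benjamini-Hochberg adjusted p under 0.05). The tests covered 9 members in endothelial, 8 in mural, 9 in fibroblast, 8 in leukocyte, 6 in monocyte and macrophage and 2 in T cell gates, and of all genes tested 12.2%, 7.77%, 13.1%, 5.58%, 6.91% and 5.00% were called in the same order. At an unadjusted p under 0.05 stood 3 members in endothelial, 3 in mural and 1 in fibroblast barcodes and 0 in the other 3 gates, where 24.3%, 20.4%, 28.5%, 15.9%, 18.4% and 15.3% of all genes tested did. In the endothelial gate, 1453 of the 1496 genes called were lower in disease. Over all genes tested there, 25.7% lay wholly higher in disease (no overlap between groups) and 24.1% wholly lower. Of the members, none of them called, 7 of 9 had a positive fold change there, among them Heyl at a mean of 2.36 CPM. Their median was log2 0.30 against 0.0021 over all genes tested. In the mural gate 7 of 8 were positive, with a median of 0.49 against 0.027. The share of mural barcodes with at least 3 endothelial UMIs was also higher in disease, and Notch1 turned negative in those without any (below). The share of all genes with a positive fold change is not given here.

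In the endothelial gate, Hes1 had the largest change among members above 10 CPM. Its level was 120 and 149 CPM in control libraries, against 172, 236 and 225 CPM in disease libraries. The groups did not overlap, with a fold change of log2 0.59 (SE 0.17, adjusted p = 0.0911). DESeq2's Wald test gave log2 0.62 with an adjusted p of 0.0281, and edgeR without replicate 3 gave 0.71 with an adjusted p of 0.0451.

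Notch1 in the endothelial gate was at 143 and 140 CPM in control and 183, 181 and 179 CPM in disease libraries, without overlap. Its fold change was log2 0.30 (SE 0.09, adjusted p = 0.105 with edgeR and 0.0329 with DESeq2). Dll4, given by library above, had a fold change of log2 0.34 (SE 0.13, adjusted p = 0.174) and Jag1 one of log2 0.33 (SE 0.17, adjusted p = 0.294), both without overlap between the groups. In all, 4 of the 9 members tested lay wholly higher in disease (Notch1, Dll4, Jag1 and Hes1) and 1 wholly lower (Notch2, at 3.48 to 3.55 against 2.99 to 3.41 CPM), where 25.7% of all genes tested lay wholly higher and 24.1% wholly lower.

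Hey1 had a smaller fold change, and 1 library stood apart in it. Its endothelial level was 67.7 and 77.9 CPM in control libraries, against 89.0, 50.6 and 97.1 CPM in disease libraries (log2 0.06, SE 0.28, adjusted p = 0.908), and without disease replicate 4 the fold change was log2 0.30 (adjusted p = 0.163). With the trend on GC content removed it was log2 0.45 (adjusted p = 0.337). Disease replicate 4 also had the lowest Hey1 of the 5 libraries in mural (55.0 CPM, against 125 to 188), fibroblast (4.78, against 10.2 to 14.9), arterial (95.9, against 150 to 207) and capillary barcodes (36.7, against 41.3 to 57.6). The same library had the highest endothelial Dll4, Jag1 and Hes1. It also had the largest leukocyte share, given above, and the shallowest endothelial barcodes (median 2474 UMIs), and the part of either in these levels was not tested.

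In the mural gate, Notch3 was wholly higher in disease (values above), with a fold change of log2 0.54 (SE 0.18, adjusted p = 0.115). Hes1 was at 280 and 307 CPM in control and at 344, 444 and 451 CPM in disease libraries (log2 0.47, SE 0.19, adjusted p = 0.197). Dll4 had a fold change of log2 0.52 (SE 0.25, adjusted p = 0.272) and Notch4 one of log2 0.87 (SE 0.38, adjusted p = 0.229), both without overlap. So 4 of the 8 members tested lay wholly higher in disease and 0 wholly lower, where 17.9% and 20.6% of all genes tested did. The share of mural barcodes with at least 3 endothelial UMIs was also wholly higher in disease (47.5 to 55.4% against 35.6 and 37.6%), and nearly all Dll4 and Notch4 UMIs of the gate lay in those barcodes (counts above). In mural barcodes without endothelial UMIs, Notch3 was at 383 and 527 CPM in control and 910, 627 and 731 CPM in disease libraries, still without overlap (log2 0.66, SE 0.31, adjusted p = 0.365), while Hes1, at 377 and 408 against 507, 322 and 665 CPM, overlapped. Of the same 8 members, 1 (Notch3) lay wholly higher and 1 (Notch1) wholly lower there, where 9.79% and 17.9% of the genes tested in the mural gate did. Notch1 rested there on 17 and 16 UMIs in control and 5, 5 and 7 UMIs in disease libraries. Dll4 and Notch4 had only 6 and 4 UMIs there over all 5 libraries. In mural barcodes with at least 3 endothelial UMIs, Dll4 (175 and 124 against 157, 154 and 199 CPM) and Notch4 (48.1 and 23.3 against 61.5, 35.9 and 70.3 CPM) overlapped. Notch3 (285 and 260 against 349, 477 and 489 CPM) and Hes1 (227 and 280 against 301, 462 and 364 CPM) did not overlap there. In all, 3 of the 8 (Notch3, Hes1 and Jag1) lay wholly higher and 1 (Heyl) wholly lower in those barcodes, where 14.7% and 20.5% of these genes did. In the barcodes without endothelial UMIs the fold change of Notch1 was negative (log2 -0.62, SE 0.42, adjusted p = 0.612).

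In fibroblasts, Notch2 was the one member near the threshold, and it lay wholly lower in disease. It was at 35.4 and 35.1 CPM in control and at 26.9, 29.5 and 25.7 CPM in disease libraries (log2 -0.40, SE 0.11, adjusted p = 0.0707). The adjusted p was 0.0417 without replicate 4, and with a trend on GC content removed the fold change turned to log2 0.083 (adjusted p = 0.761). Hes1 (98.1 and 128 against 136, 133 and 144 CPM), Notch1 and Jag1 lay wholly higher in disease with fold changes of log2 0.25, 0.21 and 0.22 (adjusted p = 0.282, 0.384 and 0.299). So 3 of the 9 members lay wholly higher and 1 wholly lower, where 25% and 25.3% of all genes tested did. Heyl, at 85.1 to 98.3 CPM in control and 87.8 to 108.5 CPM in disease libraries, had a fold change of log2 0.06 (SE 0.15, adjusted p = 0.814).

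In leukocytes the group means mixed different populations, since T cells were 25.9 and 10.5% of the leukocyte barcodes in control and 14.8, 45.1 and 35.0% in disease libraries. Within monocytes and macrophages, Notch1 was at 49.3 and 44.1 CPM in control and 58.3, 52.6 and 56.7 CPM in disease libraries (log2 0.34, SE 0.17, adjusted p = 0.354). Notch2 was at 42.8 and 40.0 against 46.3, 40.3 and 42.1 CPM (log2 0.13, SE 0.17, adjusted p = 0.686). Within T cells, Notch1 had a fold change of log2 0.079 (SE 0.33, adjusted p = 0.938) and Notch2 was at 23.2 and 25 against 1.83, 13.4 and 15.9 CPM (log2 -0.99, SE 0.53, adjusted p = 0.441).

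Whether a member changed by different amounts in 2 gates was tested as an interaction with the library as a block. No member passed for endothelial against mural, fibroblast or leukocyte gates (0 of 9 in each, where 0.163%, 0.247% and 0.00725% of all genes tested were called). At an unadjusted p under 0.05 stood 2 members (Heyl and Notch3) against the mural gate and 0 in the other 2 tests, where 5.98%, 15.3% and 4.28% of all genes tested did. In that joint fit, which scales the libraries of both gates together, the endothelial change of Hes1 exceeded its mural change by log2 0.24 (SE 0.17, adjusted p = 0.958).

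**Figure D4:**
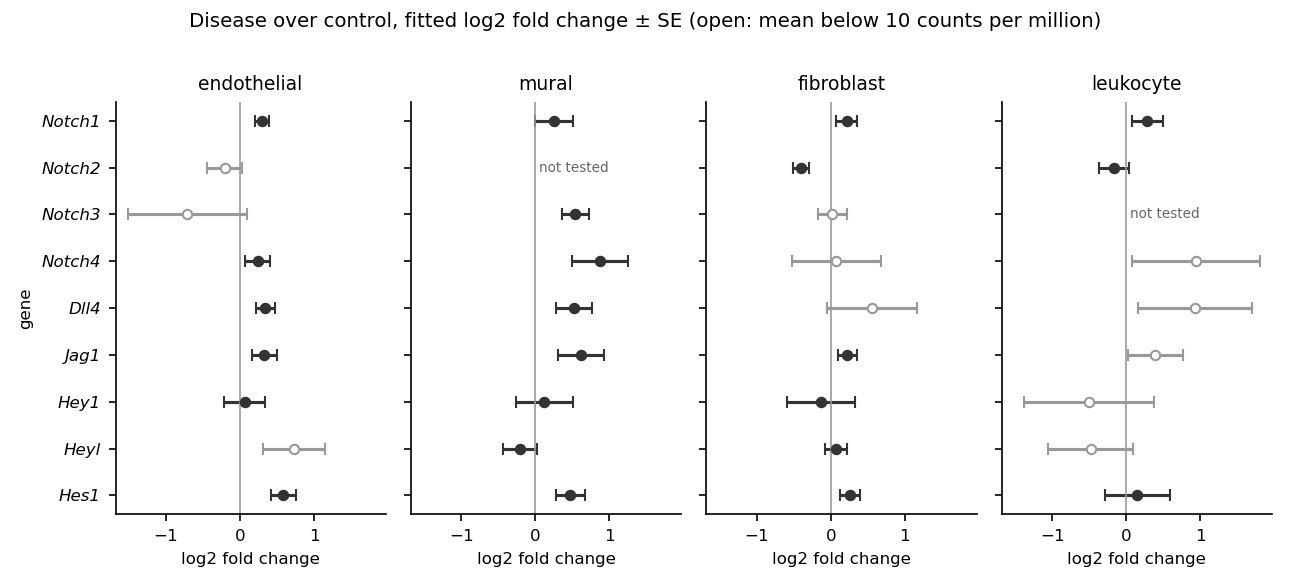
Fitted log2 fold change of disease over control (horizontal axis) with its SE for each gene in 4 gates; open grey points are genes under a mean of 10 CPM in that gate. Most points in the endothelial and mural gates lie right of 0, and none passed the adjusted threshold in edgeR's test.

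The groups also differed along base composition, which bears on these genes. Across genes, the fold change of disease over control fell with the GC content of the first 300 transcript bases, with a Spearman rho of -0.43 in the endothelial, -0.31 in the mural and -0.49 in the fibroblast gate (6226 to 6844 genes, which are not independent). Heyl (78.7% GC), Notch1 (75.0%), Notch3 (73.0%), Hey1 (72.7%) and Notch2 (71.3%) begin with GC contents far above the median of 54.0% over all genes, Notch4 (61.7%) and Dll4 (59.0%) lie above it, and Jag1 (50.3%) and Hes1 (39.3%) below it. With the GC trend of each library removed, Notch1 in the endothelial gate stood at log2 0.58 (adjusted p = 0.0326) and Notch3 in the mural gate at log2 0.87 (adjusted p = 0.0162). Hes1 in the endothelial gate, with its low GC content, was at log2 0.46 (adjusted p = 0.152) after that step. Other fold changes that had not passed the test were higher after it: Notch1 stood at log2 0.54 in fibroblasts (adjusted p = 0.156), 0.59 in monocytes and macrophages (adjusted p = 0.219) and 0.57 in T cells (adjusted p = 0.512), and Notch2 at 0.56 in monocytes and macrophages (adjusted p = 0.213).

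The rest of the pathway was read from a list of 47 other genes. Between disease and control, 0 of the 40 tested in the endothelial gate rose and 1 fell, and the same held for 0 and 1 of 41 in fibroblasts, where 12.2% and 13.1% of all genes tested were called, while none of the 28, 40, 39 and 34 tested was called in the mural, leukocyte, monocyte and macrophage and T cell gates. The gene that fell was Adam10 in both. It was at 124 and 124 CPM in the endothelial gate of control and at 87.5, 80.4 and 77.7 CPM in that of disease libraries (log2 -0.66, SE 0.10, adjusted p = 0.0107). In fibroblasts it was at 45.1 and 45.7 against 35.3, 28.3 and 31.3 CPM (log2 -0.56, SE 0.13, adjusted p = 0.0429). Removing the GC trend (65.3% in the first 300 bases of Adam10) ended both calls, at log2 -0.37 (adjusted p = 0.102) and -0.25 (adjusted p = 0.200). Both calls were also lost without replicate 1, 2 or 5, with log2 -0.66 to -0.60 in the endothelial gate and -0.58 to -0.54 in fibroblasts, and over all 13 alternatives 9 kept the endothelial and 5 the fibroblast call.

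Between endothelial and fibroblast barcodes, 39.0% of all genes tested were called higher in endothelial barcodes and 36.5% lower, so the shares of the larger groups below lie near the background. Of the 7 other ligands, 3 could be tested, and Egfl7 (a secreted Notch modulator of endothelium), Jag2 and Dll1 were all higher in endothelial than in fibroblast barcodes, at log2 6.72, 5.92 and 4.30. Of the 20 genes for processing, glycosylation and trafficking, 10 were higher and 8 lower in endothelial than in fibroblast barcodes, among them Mfng (log2 6.92), a Fringe enzyme that modifies Notch sugars, and Numbl, a relative of the inhibitor Numb, on the lower side (log2 -3.31). Of the 10 nuclear genes, 4 were higher and 3 lower, with Rbpj, the DNA-binding partner of the receptor domain (log2 -0.96), among the lower ones. Of the 10 other targets and feedback genes, Nrarp, a feedback inhibitor (log2 5.94), Efnb2, an arterial ephrin (log2 4.97), and Fbxw7, which marks the active receptor for destruction (log2 0.74), were higher, and Dtx4 and Dtx3 were lower. All of these had an adjusted p of at most 1.3e-05 in edgeR's quasi-likelihood test; Dll1, Efnb2, Fbxw7 and Rbpj were named after their values had been seen.

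Hey2, a relative of Hey1, was a mural gene, at 39.2 CPM on average in mural barcodes and 0.706 in endothelial barcodes (log2 -5.75, SE 0.40, adjusted p = 2.7e-16). Dtx3 was also higher in mural than in endothelial barcodes, at 291 against 28.8 CPM (log2 -3.43, SE 0.10, adjusted p = 1.2e-28). Of the 40 pathway genes tested between these gates, 11 were called higher in endothelial and 8 higher in mural barcodes, where 43.0% of all genes tested were called. Between arterial and capillary barcodes, 5 of 38 pathway genes were higher in arterial (Efnb2 at log2 0.78, Furin, Spen, Jag2 and Ncstn) and 7 were lower, where 8.79% and 8.23% of all genes tested were called. The largest of the lower ones were Neurl1b at log2 -0.69 and Lfng at log2 -0.50. Over the 38 the median was log2 -0.028, against -0.023 over all genes tested.

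The genes whose levels most resembled each member were ranked by Pearson r of log2(CPM + 1) over 41 sums of 1 library and 1 of 9 fine gates. The points of 1 library share their depth and those of 1 gate their cell type, and markers used for gating were left out. Notch3 was most like Ednra, the endothelin A receptor, Daam2 and Adcy5 (r = 0.99, 0.98 and 0.98), and Sod3 and Ebf2 were among the genes most like Heyl (0.96 in each). Notch4 was most like Egfl7, Ushbp1 and Adgrf5 (0.97, 0.97 and 0.97), and Dll4 most like Flt1, a VEGF receptor, Rbp7 and Mmrn2 (0.98, 0.98 and 0.98). Hey1 was most like Alpl, Epas1 and Snrk (0.97, 0.95 and 0.94), and Jag1 most like Tmem109, Dlc1 and Adamts1 (0.94 in each). Notch1 was most like F11r, Arap3 and Clec2d (0.92 in each), Hes1 most like Sh3pxd2a, Trak1 and Yae1d1 (0.91, 0.90 and 0.89), and Notch2 most like Sdc4, Foxp4 and Irs2 (0.81, 0.78 and 0.75).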

How the data were processed

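Single cells of digested mouse hearts were sequenced in 5 libraries with 10x Genomics 5′ v1.1 chemistry, per the labels' protocols. The deposited files hold raw UMI counts per gene and barcode, and the file headers give Cell Ranger 3.1.0 as the authors' software. The submitters' processing notes also name Seurat 3 and the builds GRCh38 and mm10 without their roles. The genotype labels of replicates 2, 4 and 5 read Pdcd2-/- or Pdcd3-/-, and the series' design text, which gives Pdcd1-/- for both groups, was followed. The sort labels also number the DRAQ dye differently between libraries, and the design text was followed there too.

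Retained barcodes had 500 or more UMIs, 200 or more genes and no more than 10% mitochondrial UMIs, and doublets were called with Scrublet in scanpy 1.11.5 at 0.8% per 1000 cells, which removed 1174 (3.06%). In control replicate 2 the automatic threshold marked 4 barcodes, so the median threshold of the other 4 libraries was used there, a choice made after those calls were seen (68 removed). A barcode entered the endothelial, mural, fibroblast or leukocyte gate with at least 3 UMIs from at least 2 of its markers that made up at least 80% of the UMIs over the 4 marker lists. Barcodes with markers of Schwann or mesothelial cells were left out (254). Counts were summed per library and gate and tested by the quasi-likelihood F test of edgeR 4.0.16 (R 4.3.3), after filterByExpr and TMM scaling, with Benjamini-Hochberg adjustment over all genes and a threshold of 0.05. SE was taken as the size of the log2 change divided by the root of F. Levels are plain CPM of the gate's own UMIs and are compared within a gene only. The scripts were tested on simulated data.

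The alternatives were other doublet, mitochondrial and gate settings, equal numbers of barcodes, RLE scaling, no count filter, DESeq2 1.42.0, removal of a GC trend (GENCODE M21 transcripts on GRCm38, matched for 99.6% of genes), no library block, and leaving out each library. Named genes are all 9 members, pathway genes past the threshold (at most 4 per direction by fold change), and the 3 genes most like each member with at least 10 CPM in their highest gate. A few genes that this rule names are not reported here. Members, lists and tests were chosen with earlier results of these data known.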

Additional observations from a re-analysis of the deposited data

How the results depend on the processing

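Of the 17 counts of members called, 12 kept their side of the threshold and stayed within 1.5 times under the alternatives run for them. The exceptions are few. The shares of all genes called under these alternatives are not given here, so the counts below are not read as a result about the members. In the endothelial gate, 0 members were called between the groups, against 2 with DESeq2 (Notch1 and Hes1) and 1 with the GC trend removed (Notch1), and 0 to 1 when a library was left out (Hes1 without replicate 3). In the mural gate, 1 was called with the GC trend removed (Notch3). In fibroblasts, 0 to 1 were called when a library was left out (Notch2 without replicate 4). The test of different changes in endothelial and mural gates called 0 to 1 when a library was left out (Notch3 without replicate 2). For smooth muscle over pericyte, 2 members fell to 1 with the strict gate, to 1 in mural barcodes without endothelial UMIs, to 1 with no replicate block, and to 1 to 2 when a library was left out.

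None of the single fold changes that turned sign had passed the test. When a library was left out, these ranged as follows on the log2 scale (disease over control): endothelial Hey1 -0.093 to 0.30, mural Hey1 -0.20 to 0.45, fibroblast Hey1 -0.47 to 0.20, fibroblast Heyl -0.067 to 0.21, leukocyte Hes1 -0.42 to 0.98, monocyte and macrophage Hes1 -0.041 to 1.11 and T cell Notch1 -0.14 to 0.24. With the GC trend removed, fibroblast Hey1 was 0.31, fibroblast Notch2 0.083 and leukocyte Notch2 0.36. With the strict gate, mural Notch1 was -0.43 and mural Hey1 -0.22. Mural Hey1 was also -0.050 at 25% mitochondrial UMIs, -0.023 with equal barcodes and -0.0039 in mural barcodes without endothelial UMIs, where Notch1 was -0.62 and Heyl 0.014. Arterial over capillary Hes1 was 0.051 with the strict gate and -0.069 to 0.026 when a library was left out. Smooth muscle over pericyte Dll4 was 0.13 without a count filter, 0.029 with no replicate block and -0.44 to 0.28 when a library was left out.

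No paired analysis was possible between the groups because control and disease share no replicate number. Between gates of the same libraries, fits with no replicate block lost the calls of Dll4 as endothelial over mural (log2 0.48, adjusted p = 0.0831), Hes1 as endothelial over fibroblast (log2 0.42, adjusted p = 0.0805), Notch1 as arterial over capillary (log2 0.27, adjusted p = 0.503) and Notch3 as smooth muscle over pericyte (log2 0.44, adjusted p = 0.167). RLE scaling moved the median of all genes from 0.12 to -0.00035 for fibroblast over leukocyte and from -0.14 to -0.025 in the test of different changes in endothelial and fibroblast gates, and by less than 0.1 elsewhere. Few barcodes stood behind the mural gate (61 to 104 per library) and its smooth muscle (29 to 49) and pericyte (24 to 55) parts.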
